A study of Homo sapiens with 10 samples.

Results

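Chemokines are small secreted proteins that attract cells along a gradient by binding G protein-coupled receptors. The CXC chemokines CXCL1, CXCL2, CXCL3, CXCL5, CXCL6 and CXCL8 carry the ELR motif, signal through CXCR2 (CXCL6 and CXCL8 also through CXCR1) and attract neutrophils, while CCL20 attracts CCR6-bearing lymphocytes and dendritic cells and CCL2 attracts CCR2-bearing monocytes. CXCL12 is the ligand of CXCR4 and ACKR3, and CXCL16 is made as a membrane-bound protein that binds CXCR6. Glioma cells are known sources of several of these ligands, and many of the genes are induced by inflammatory cytokines through NF-kB and AP-1 sites close to their start.

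The genes described here are 10 chemokines named as a list: CXCL1, CXCL2, CXCL3, CXCL5, CXCL6, CXCL8, CXCL12, CXCL16, CCL2 and CCL20. The list was selected on measured values: CCL20, CXCL2 and CXCL8 were higher in the perturbed libraries of both glioma lines. Therefore the differences of all 10 within each line are given as a description, with no p-value, and nothing is read from how many of them were called. Of the 10, 9 had a row in the deposited table of 34567 genes. CXCL6 was not analysed here.

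The study sequenced RNA from 2 human glioma cell lines in which the homeobox transcription factor MEOX2 was lowered or raised, to find what it regulates. SNB19 cells received a Scramble siRNA (NC, n = 3) or a MEOX2 siRNA (siMEOX2, n = 3) with Lipofectamine 3000. U87 cells carried empty-vector lentivirus (EV, n = 2) or MEOX2 overexpression lentivirus (OE, n = 2), and by the study's methods were kept as puromycin-selected stable lines. All cells were grown in DMEM with serum, and the 10 libraries held 12533775 to 16560324 counts each. The 2 lines differ in their treatment as well as in their origin, because the SNB19 controls were transfected with siRNA and the U87 controls were infected with lentivirus. Nothing in the labels says that libraries of one group came from separate cultures, so every p-value measures only the spread between these libraries, which may be technical. Which of the MEOX2 siRNAs was used is not stated in the labels. The treatment labels of 3 U87 libraries name a MEOX gene other than MEOX2, and the groups were taken from the titles. Both U87 OE titles carry the same replicate label in brackets, and the replicate numbers were taken from the first part of each title.

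MEOX2 itself followed the titles. Its counts were 249, 224 and 275 in the NC libraries and 54, 40 and 49 in the siMEOX2 libraries. It was lower after siRNA, with a log2 fold change of -2.41 ± 0.14 (SE) and an adjusted p of 1.35e-11 in edgeR's quasi-likelihood test. In U87, MEOX2 had 0 counts in both EV libraries and 4999 and 5308 counts in the OE libraries, at least 3821-fold more in counts per library size when the control group is set to a floor of 3 counts. U87 cells without the transgene therefore held no MEOX2 count, and a count of 0 over that group allows up to 0.0993 CPM (counts scaled to library size).

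EV replicate 1 stood apart from the other libraries. The chi-square statistic per degree of freedom between its counts and those of EV replicate 2 was 280, against 2.06 to 6.56 in the other replicate pairs. Its TMM scaling factor was 0.695, where the other 9 libraries lay between 0.950 and 1.13. Per library size, the ratio of EV replicate 1 to EV replicate 2 fell with gene length, from a median of 2.25 for genes under 1000 bases to 0.486 for genes of 6000 bases or more. Between the OE replicates the medians lay between -0.11 and 0.08 on the log2 scale. The fold changes in U87 are therefore given with and without EV replicate 1, and without it the lone control library is assumed to vary like the OE pair.

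Among the chemokines, the log2 ratio of EV replicate 1 to EV replicate 2 was 0.19 for CXCL1 and 0.23 for CXCL2, which are 1296 and 1500 bases long. It was -0.45 for CXCL8 (2274 bases), -0.82 for CXCL3 (2219 bases) and -0.94 for CXCL5 (2538 bases). The control libraries thus differed by less than 2-fold for each of these 5 genes, and in both directions.

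Of the listed genes, 6 sit together on chromosome 4. In GENCODE v29 on GRCh38, CXCL8 spans chr4:73740506-73743716, CXCL6 chr4:73836497-73849064 and CXCL1 chr4:73869393-73871242, all on the plus strand. CXCL5 spans chr4:73995642-73998779, CXCL3 chr4:74036589-74038807 and CXCL2 chr4:74097035-74099293, all on the minus strand. The cluster covers 358788 bases. CCL20 lies alone at chr2:227805739-227817564 on the plus strand. CCL2 at chr17:34255218-34257203 (plus strand) and CXCL16 at chr17:4733526-4739922 (minus strand) are far apart on chromosome 17, and CXCL12 is at chr10:44370165-44386493 on the minus strand. CXCL16 overlaps MED11 on the opposite strand, and since the strand setting of the counting is not given, reads of the 2 genes cannot be told apart there. CXCL1, CXCL2 and CXCL3 are close copies: 5.73%, 9.24% and 3.02% of their 50-base transcript windows occur in another of the 3. Reads were 150 bases long, longer than these windows, so whether any reads were shared or dropped in counting is not known. No 50-base window of the other 7 genes occurs in another listed gene.

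The short promoter windows are shown because the ELR chemokines of the cluster share one 9-base site that CCL20 has only in a looser form. RefSeq promoters (GRCh38.p14, from 250 bases before to 50 bases after the start of each gene) were found for 8 of the 10 genes, with CXCL16 and CCL2 named only. The sequence GGAATTTCC, a known NF-kB site, was searched on both strands and occurred in 6 of these 8 promoters and in 162 of all 35116 promoters (0.461%). The looser form GGNNTTTCC, which includes the first, occurred in 7 of the 8 and in 6.26% of all promoters. In the lines that follow, the capitals mark the site and the letters run 5′ to 3′ on the strand of the gene. The site began 91 bases before the start in CXCL8 (chr4:73740468-73740496, plus strand), 89 in CXCL6 (chr4:73836579-73836607, plus strand) and 78 in CXCL1 (chr4:73869305-73869333, plus strand). It began 90 bases before the start in CXCL5 (chr4:73998749-73998777, minus strand), 78 in CXCL3 (chr4:74038749-74038777, minus strand) and 77 in CXCL2 (chr4:74099254-74099282, minus strand). In CCL20 (chr2:227813753-227813781, plus strand) the looser form lies 79 bases before the RefSeq start, on the opposite strand, so that its complement is printed. All these distances are from RefSeq starts, which can differ from GENCODE. The windows of CXCL6, CXCL5, CXCL3, CXCL2 and CCL20 lie inside the GENCODE spans given above.
CXCL8: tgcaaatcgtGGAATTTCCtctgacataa
CXCL6: ctgagttcagGGAATTTCCccagcatccc
CXCL5: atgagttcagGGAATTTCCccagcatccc
CXCL1: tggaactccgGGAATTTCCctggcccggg
CXCL2: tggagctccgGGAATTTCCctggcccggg
CXCL3: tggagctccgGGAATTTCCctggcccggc
CCL20: tgatcaatggGGAAAACCCcatgtggcaa

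The longer windows are shown for the 3 genes on which the choice of the list rested. Each is the 250 bases before the RefSeq start, for CXCL8 at chr4:73740319-73740568 (plus strand), for CXCL2 at chr4:74099196-74099445 (minus strand) and for CCL20 at chr2:227813592-227813841 (plus strand). The capitals mark GGNNTTTCC on either strand and, in CXCL8, the AP-1 site TGANTCA, which began 137 bases before the start and occurred in 1 of the 8 promoters and in 7.71% of all promoters. CXCL2 holds a second match to the looser form 53 bases before its start, as do CXCL1 and CXCL3. The homeodomain core TAATTA was found in 0 of the 8 windows and in 4.84% of all promoters. These matches describe letters in a window and were not tested for binding.
CXCL8: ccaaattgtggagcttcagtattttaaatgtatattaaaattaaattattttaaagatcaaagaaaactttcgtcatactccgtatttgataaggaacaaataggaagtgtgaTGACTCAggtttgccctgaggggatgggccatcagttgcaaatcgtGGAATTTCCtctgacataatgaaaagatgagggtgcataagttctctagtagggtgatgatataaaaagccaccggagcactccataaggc
CXCL2: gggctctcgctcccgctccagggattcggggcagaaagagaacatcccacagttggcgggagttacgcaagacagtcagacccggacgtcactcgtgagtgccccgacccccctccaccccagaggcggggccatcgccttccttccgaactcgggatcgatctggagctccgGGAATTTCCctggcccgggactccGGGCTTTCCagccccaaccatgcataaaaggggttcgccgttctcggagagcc
CCL20: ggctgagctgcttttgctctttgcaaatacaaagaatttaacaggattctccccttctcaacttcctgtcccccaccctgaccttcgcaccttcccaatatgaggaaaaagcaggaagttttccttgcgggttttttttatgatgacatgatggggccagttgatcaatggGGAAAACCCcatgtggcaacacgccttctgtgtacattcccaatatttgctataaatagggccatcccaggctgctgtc

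Levels are compared between genes in FPKM, the authors' fragment counts scaled to gene length and library size, and within a gene also by counts. The neutrophil attractant CXCL8 was at 2.34, 2.21 and 3.34 FPKM in the NC libraries of SNB19 and at 9.94, 16.7 and 15.9 FPKM in the siMEOX2 libraries. In U87 it was at 40.7 and 55.7 FPKM with the empty vector and at 1056 and 1139 FPKM with MEOX2. All siMEOX2 values lay above all NC values and both OE values above both EV values. Ranked among all 34567 genes by FPKM, CXCL8 stood between 8713 and 9965 in NC and between 2945 and 4637 in siMEOX2. It stood at 1223 and 702 in EV and at 17 and 14 in OE.

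CXCL2, a second CXCR2 ligand, was at 3.34, 2.43 and 3.65 FPKM in NC and at 14.5, 19.1 and 14.7 FPKM in siMEOX2. In U87 it was at 26.4 and 22.5 FPKM in EV and at 181 and 188 FPKM in OE. Its groups did not overlap in either line.

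CCL20, the only known chemokine ligand of CCR6, was at 1.93, 2.24 and 2.47 FPKM in NC and at 23.2, 43.1 and 45.9 FPKM in siMEOX2. Replicate 1 of siMEOX2 was the lowest of the 3 and still well above every control. In U87 the gene had 5 and 6 counts in EV and 31 and 38 in OE, or 0.194 and 0.268 against 1.55 and 1.63 FPKM. By mean FPKM it was thus the highest of the listed genes in siMEOX2 and 5th in NC, and it was near the detection limit in U87 EV.

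CXCL3, a close copy of CXCL2, was at 3.81, 4.24 and 3.95 FPKM in NC and at 4.36, 5.14 and 4.48 FPKM in siMEOX2. In U87 it was at 5.16 and 9.10 FPKM in EV and at 29.5 and 32.8 FPKM in OE. The U87 groups were far apart, while those of SNB19 lay next to each other without overlapping.

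CXCL5 had 7, 4 and 3 counts in NC and 0, 3 and 0 in siMEOX2. In U87 it had 59 and 99 counts in EV and 404 and 443 in OE, or 1.44 and 2.77 against 12.7 and 11.9 FPKM. CXCL1, another neutrophil attractant, had 0 counts in the 3 NC libraries and a single count in siMEOX2 replicate 2. It had 129 and 98 counts in EV and 182 and 206 in OE, or 6.16 and 5.38 against 11.2 and 10.9 FPKM. Both genes were measurable in U87 and at or near 0 in SNB19, and the OE values of both lay above the EV values.

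CXCL16 went the other way between the lines. It was at 4.56, 4.54 and 4.52 FPKM in NC and at 5.06, 4.93 and 5.11 FPKM in siMEOX2, and U87 held 0 and 1 counts of it in EV and 1 and 8 in OE. The monocyte attractant CCL2 was at 1.43, 1.84 and 1.56 FPKM in NC and at 1.47, 1.68 and 1.47 FPKM in siMEOX2, with overlapping groups. In U87 it had 4 and 1 counts in EV and 0 in both OE libraries, which allows up to 0.11 CPM over that group. CXCL12 had between 0 and 2 counts in every SNB19 library and 0 in every U87 library, so no difference could be detected at this depth.

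The order of the levels changed with the treatment in SNB19. In NC it ran from CXCL16 at 4.54 ± 0.02 FPKM (SD, n = 3) and CXCL3 at 4.0 ± 0.22 to CXCL2, CXCL8 and CCL20, whose neighbouring ranges overlapped. In siMEOX2 the order was led by CCL20 at 37.4 ± 12.3 FPKM, followed by CXCL2 at 16.1 ± 2.61 and CXCL8 at 14.2 ± 3.72, which overlapped each other. CXCL16 at 5.03 ± 0.09 and CXCL3 at 4.66 ± 0.42 came next, also overlapping. CCL2 at 1.54 ± 0.12 FPKM stayed below them.

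In U87 the first 3 genes came in the same order in both groups. In EV it was CXCL8 at 48.2 ± 10.6 FPKM (SD, n = 2), CXCL2 at 24.4 ± 2.71, CXCL3 at 7.13 ± 2.79 and CXCL1 at 5.77 ± 0.55, of which the last 2 overlapped. CXCL5 followed at 2.11 ± 0.94 FPKM and CCL20 at 0.231 ± 0.052. In OE it was CXCL8 at 1097 ± 58.1 FPKM, CXCL2 at 185 ± 4.94 and CXCL3 at 31.1 ± 2.32, and CXCL5 at 12.3 ± 0.55 now stood above CXCL1 at 11.0 ± 0.24. No neighbouring ranges overlapped among these 5 genes in OE.

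The summed FPKM of the 9 genes was 18.3 ± 1.14 in NC, 79.0 ± 17.8 in siMEOX2, 88.0 ± 11.1 in EV and 1339 ± 64.7 in OE. In siMEOX2, CCL20 made up 39.7% to 52.4% of the sum, against 11.0% to 12.7% in NC. The share of CXCL16 was 23.1% to 25.9% in NC and 5.43% to 8.63% in siMEOX2, although its own level was not lower. In U87, CXCL8 alone made up 50.8% to 58.1% of the sum in EV and 81.7% to 82.2% in OE. CCL20 made up at most 0.28% there.

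**Figure D1:**
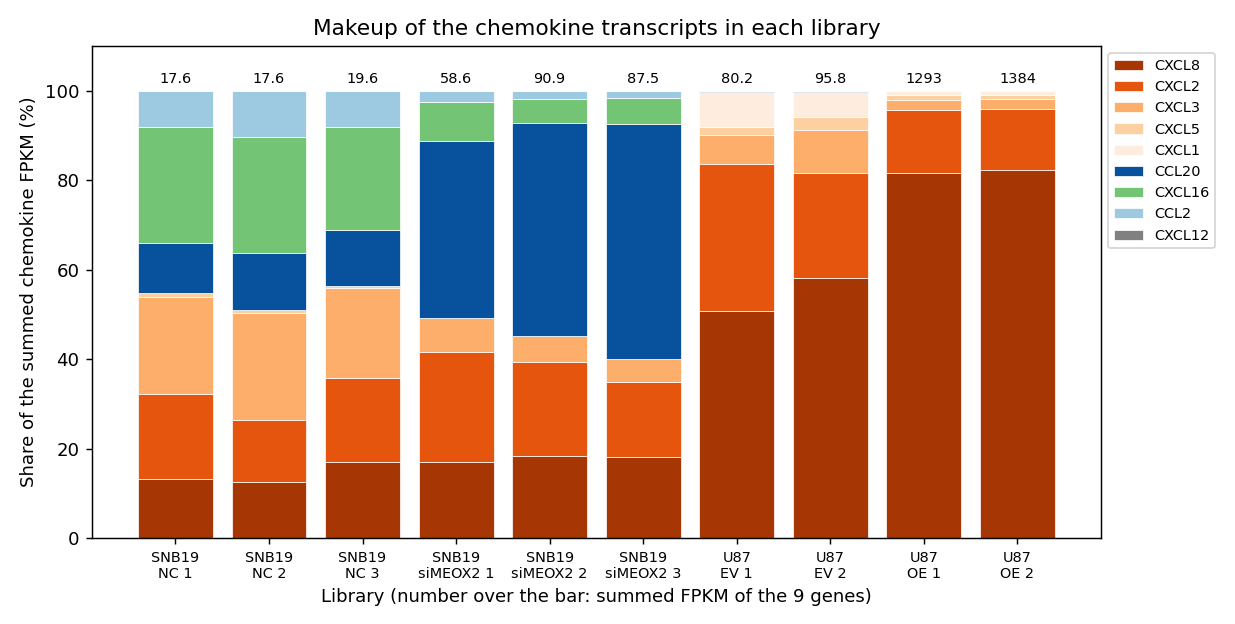
Stacked bars give the share of each gene (vertical axis, percent) in the summed FPKM of the 9 chemokines in each library (horizontal axis), with the sum printed over the bar. CCL20 takes the largest share in the 3 siMEOX2 libraries and CXCL8 in the 4 U87 libraries, and the sum runs from 17.6 to 1384 FPKM.

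Fold changes within SNB19 were fitted on the deposited counts with edgeR, with TMM scaling, over all 15525 genes that passed its filter on low counts. The log2 fold change of siMEOX2 over NC was 4.0 ± 0.21 (SE) for CCL20, a 16.0-fold difference and rank 5 among all genes by size of increase. It was 2.35 ± 0.17 for CXCL8 (5.09-fold, rank 71) and 2.27 ± 0.15 for CXCL2 (4.82-fold, rank 78). The other genes that passed the filter stayed near 0, with 0.15 ± 0.12 for CXCL3, 0.07 ± 0.10 for CXCL16 and -0.13 ± 0.21 for CCL2. On this scale the small FPKM differences of CXCL3 and CXCL16 were about as large as their standard errors. CXCL1, CXCL5 and CXCL12 did not pass the filter.

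At an adjusted p under 0.05, the fit called 3 of these 6 genes, all higher, where 55.9% of all genes tested were called and 27.4% were called higher. Since this contrast was used to choose the list, nothing is read from that count.

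Summed marker lists differed between NC and siMEOX2. The summed CPM of 8 glioma and astroglial markers was 1278 to 1290 in NC and 622 to 646 in siMEOX2, and all 6 tested were lower, while AQP4 was at 0 counts in NC. For the 8 myeloid and lymphoid markers with a row, of 9 listed, the sum was 21.8 to 25.5 in NC and 8.70 to 10.9 in siMEOX2, with 2 of 3 tested lower. CD68 and AIF1 were at 0 in siMEOX2 and LYZ in NC. Most of the myeloid and lymphoid sum was CSF1R, with 297, 287 and 316 counts in NC and 107, 72 and 104 in siMEOX2. ITGAM had 37, 34 and 53 counts in NC and 48, 47 and 42 in siMEOX2. The 3 endothelial markers summed to 39.7 to 43.7 in NC and 6.61 to 9.68 in siMEOX2, all 3 of them lower. Interferon-response genes that answer to transfected nucleic acid (8 with a row, of 9) summed to 159 to 168 in NC and 124 to 133 in siMEOX2, with 1 of 7 tested higher and 4 lower. Of all genes tested, 27.4% were called higher and 28.5% lower, and nothing is read from the number of markers called. Each library came from a culture of 1 glioma line, so these sums are levels of transcripts and not numbers of cells. The part of these lists in the chemokine values was not tested.

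In U87, the log2 fold change of OE over EV was 4.28 ± 0.36 for CXCL8 (19.4-fold), and 4.29 ± 0.14 without EV replicate 1. For CXCL2 it was 2.64 ± 0.37 (6.22-fold), and 3.03 ± 0.13 (8.14-fold) without that library. CXCL3 was at 1.93 ± 0.28 (3.80-fold), and at 1.76 ± 0.14 without it.

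CXCL5 had a log2 fold change of 2.35 ± 0.32 (5.11-fold), and 2.14 ± 0.18 without EV replicate 1. CCL20 was at 2.53 ± 0.49 (5.78-fold), and at 2.54 ± 0.65 without it, from 5 and 6 control counts. CCL20 passed the filter on low counts only through the OE group, so it had to differ to be fitted. CXCL1 had the smallest value, at 0.66 ± 0.35 (1.57-fold), 1.02 ± 0.20 (2.03-fold) without EV replicate 1 and 0.40 (1.32-fold) without EV replicate 2. When gene length was taken into the fit as an offset, an alternative added after seeing the data, CXCL8 was at 4.55, CXCL2 at 3.06 and CXCL1 at 1.06. CXCL12, CXCL16 and CCL2 did not pass the filter, and the 9 OE counts of CXCL16 against 1 in EV give a ratio of CPM of 10.0 with a 95% counting interval of 1.39 to 439.

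The U87 fit called 0 of these 6 genes and 0 of 14180 genes in all (0%), MEOX2 included, whose adjusted p was 0.123. At an unadjusted p under 0.05 it held 2643 genes, and DESeq2 called 991 genes (6.99%), 4 of the 6 chemokines among them (CXCL2, CXCL3, CXCL5 and CXCL8). Without EV replicate 1 edgeR called 6 of 6, all higher, against 47.4% of all 14875 genes tested (23.3% higher). Without EV replicate 2 it also called 6 of 6, against 71.2% of 14912 (36% higher). Without either OE library it called 0 of 6. The number called thus ran from 0 to 6. Since this contrast too was used to choose the list, and CCL20 passed the filter only through OE, nothing is read from these counts. With library size only in place of TMM, the median log2 fold change of all genes moved by 0.227, and the 6 directions were the same.

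The summed marker lists of U87 were as follows. The glioma and astroglial sum was 2036 to 4157 CPM in EV and 1290 to 1316 in OE, with S100B and AQP4 at 0 in EV and OE. VIM, the largest part of it in EV, had 57276 counts in EV replicate 1 and 17449 in EV replicate 2, against 7577 and 8966 in OE. CD44 overlapped between the groups, at 58.1 and 74.6 FPKM in EV and 69.4 and 66.0 FPKM in OE. SOX2 had 0 and 1 counts in EV and 3 in each OE library. The myeloid and lymphoid sum was 12.7 to 17.2 in EV and 3.11 to 4.71 in OE, and PTPRC, CD163, AIF1, LYZ and ITGAM were at 0 in EV. Most of that sum was CSF1R, with 201 and 234 counts in EV and 31 and 42 in OE. CD163 and ITGAM went the other way, to 4 and 9 and to 2 and 11 counts in OE. The endothelial sum was 5.69 to 7.26 in EV and 1.50 to 2.31 in OE. Interferon-response genes summed to 154 to 217 CPM in EV and 224 to 241 in OE. With both controls 0 of 7 tested were called, where 0% of all genes were. Their median log2 fold change was -0.13, and 0.18 without EV replicate 1. Their part in the chemokine values was not tested.

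The unperturbed lines were compared by fitting all 10 libraries together and testing U87 EV against SNB19 NC, a contrast that the choice of the list did not use. It shares its control libraries with both comparisons above. CXCL1 and CXCL5 in NC, and CXCL16, CCL2 and CCL20 in EV, had fewer than 10 counts in each library. They passed the filter through other groups, so nothing is read from their adjusted p-values. The lines held different sets of chemokines: U87 had more of the ELR CXC group and SNB19 more CXCL16, CCL2 and CCL20. CXCL8 was higher in U87 EV by 4.55 ± 0.25 on the log2 scale (23.4-fold, adjusted p = 1.04e-06) and CXCL2 by 3.36 ± 0.24 (10.3-fold, adjusted p = 4.67e-06). CXCL5 was higher by 4.41 ± 0.46 (adjusted p = 4.36e-05) and CXCL3 by 1.16 ± 0.15 (2.24-fold, adjusted p = 0.000212). CXCL1, with 227 counts in EV and 0 in NC, was at least 115-fold higher in CPM against a floor of 3 counts over the NC group (adjusted p = 1.43e-05).

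CCL20 was lower in U87 EV, at a log2 fold change of -2.88 ± 0.42 and an adjusted p of 0.000384. CCL2 had 145 counts in NC and 5 in EV, a ratio of CPM of 19.1 with a 95% counting interval of 8.01 to 59.8 (adjusted p = 0.000256). This value leaned on single libraries, with a fitted log2 fold change of -3.83 with both EV libraries, -5.18 without EV replicate 1 and -3.02 without EV replicate 2. CXCL16 had 581 counts in NC and 1 in EV, a ratio of 383 with an interval of 68.5 to 15165 (adjusted p = 5.91e-06). Such intervals cover counting error only.

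CXCL1, CXCL5, CXCL16, CCL2 and CCL20 passed the filter only through groups where they were higher, so nothing is read from the count that follows. The 8 chemokines that passed the filter, CXCL12 being the one that did not, all passed the threshold, 5 of them higher and 3 lower in U87 EV, where 56.9% of all 17312 genes tested did (28.8% higher and 28.1% lower). Each kept its call without EV replicate 1 and without EV replicate 2. With limma on log2(FPKM + 0.1) CXCL3 no longer passed, at 0.76. Of all called genes 50.6% were higher in U87 EV with TMM and 35.5% with library size only, which moved the median of all genes by -0.347, and the 8 directions were the same under both. Line, transfection and viral vector cannot be told apart in this comparison.

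The receptors of these ligands were at low counts in both lines. CXCR1 had at most 1 count in any library, and CXCR2 had 0 to 4 counts in NC, 0 to 6 in siMEOX2 and 0 in all U87 libraries. CXCR4 had 16, 7 and 18 counts in NC, 2, 4 and 0 in siMEOX2 and 0 in U87. CXCR6, the CXCL16 receptor, had 17 to 29 counts in SNB19 and 6 to 13 in U87, and CCR2 had 1 to 5 in NC and at most 1 elsewhere. CCR6 was not analysed here.

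ACKR3, an atypical receptor that takes up CXCL12, was the exception. It had 1128, 886 and 1050 counts in NC, 842, 833 and 802 in siMEOX2, 0 in both EV libraries and 1 and 0 in OE. It was lower in siMEOX2 by a log2 fold change of -0.33 ± 0.06 (adjusted p = 0.000146). Between the controls it was at least 674-fold higher in SNB19 NC than in U87 EV, against a floor of 3 counts over EV.

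A list of 107 other genes of the chemokine system, of which 94 had a row, sets these values in their pathway: other ligands, receptors, shedding proteases, receptor signalling, NF-kB, AP-1 and C/EBP factors, inducing cytokines and mRNA decay. In SNB19, 56 were tested and 43 were called, 23 higher and 20 lower, against 55.9% called of all genes (27.4% higher and 28.5% lower). The counts of each class that follow are to be read beside these shares, and nothing is taken from them as particular to a class. Their median log2 fold change was 0.05, and that of all genes 0.01. The largest changes were among the genes listed as inducing cytokines, and CCL5 (-2.44) fell by about as much as CSF3 (2.45) rose. Whether these cytokines act on the chemokines here was not tested. IL1A rose from 71, 47 and 61 counts to 449, 552 and 620, a log2 fold change of 3.16 ± 0.15 (adjusted p = 5.51e-13). IL6 rose from 68, 33 and 40 counts to 281, 386 and 369 (2.86 ± 0.18, adjusted p = 3.97e-11).

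Of the 7 inducing cytokines tested in SNB19, 4 rose and 2 fell, where 27.4% of all genes rose and 28.5% fell. CSF3, the granulocyte growth factor, rose by 2.45 ± 0.46 from 6 to 10 counts to 16 to 60 counts, and LIF rose by 1.06 ± 0.07. CSF3 passed the filter on low counts only through siMEOX2, so it had to differ to be fitted, and nothing is read from its call. IL1B fell, from 178, 147 and 175 counts to 72, 106 and 120, at a log2 fold change of -0.76 ± 0.16 (adjusted p = 0.00047). Of the 5 other ligands tested, 0 rose and 3 fell: CCL5 by a log2 fold change of -2.44 ± 0.36, CX3CL1 by -1.36 ± 0.22 and CCL26 by -1.28 ± 0.18. CCL5, with 4 to 11 counts in siMEOX2, passed the filter only through NC, so nothing is read from its call. Among 4 receptors tested, CCR3 rose (1.01 ± 0.29, adjusted p = 0.00535) and CCR1 fell (-0.92 ± 0.21, adjusted p = 0.000804).

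Of 11 NF-kB subunits and inhibitors in SNB19, 7 rose and 1 fell, with a median log2 fold change of 0.34, where 27.4% of all genes rose and 28.5% fell. NFKBIZ, a nuclear cofactor of NF-kB, rose by 1.78 ± 0.08 (adjusted p = 4.12e-13), and the others that rose did so by less than 1 on the log2 scale. Of 9 AP-1 and C/EBP factors, 7 rose and 2 fell, with a median of 0.31. CEBPD rose by 1.78 ± 0.11 (adjusted p = 3.88e-11) and FOS by 1.38 ± 0.18 (adjusted p = 2.17e-06). ZFP36L2, a protein that destabilises AU-rich mRNAs, fell to a log2 fold change of -1.31 ± 0.07 (adjusted p = 5.76e-12), and 3 of the other mRNA decay genes rose. Of 10 receptor signalling genes 1 rose and 7 fell, and of 3 shedding or trimming proteases 0 rose and 2 fell, beside the same shares of all genes.

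In U87, 52 genes of the list were tested and 0 were called by edgeR with both controls. DESeq2 called 9 of them, against 6.99% of all genes. Without EV replicate 1, the median log2 fold change of the 53 list genes tested was 0.32, where that of all genes was 0.01. IL1B, an inflammatory cytokine, had the largest log2 fold change of the list with both controls and was named after its values were seen. It had 219 and 248 counts in EV and 16744 and 21971 in OE, a log2 fold change of 6.27 ± 0.38, and 6.32 without EV replicate 1. Its direction was opposite to that in SNB19, and the difference between the lines was not tested.

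IL1A had 57 and 37 counts in EV and 1083 and 1304 in OE (4.54 ± 0.43, and 5.04 without EV replicate 1). IL6 had 380 and 221 counts in EV and 730 and 990 in OE (1.37 ± 0.43, and 1.99 without that library). LIF was at 1.57 ± 0.28 and NFKBIZ at 2.33 ± 0.49, with 1.42 and 1.86 without it. Of the 6 inducing cytokines tested without EV replicate 1, 5 were called (IL1A, IL1B, IL6, CSF3 and LIF), all higher, where 47.4% of all genes were called and 23.3% were called higher. TNFAIP3, an inhibitor that NF-kB itself induces, had 112 and 336 counts in EV and 1425 and 1432 in OE, a log2 fold change of 2.64 ± 0.52, and 2.13 without EV replicate 1, against -0.03 ± 0.10 in SNB19.

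The other list genes with the largest values without EV replicate 1 are given with both values. CSF3 was at 0.81 ± 0.55 with both controls and 1.67 without EV replicate 1, from 12053 and 5516 counts in EV and 15599 and 18652 in OE. CCL26 was at 0.30 ± 0.84 and 1.96, from 41 and 9 counts in EV and 33 and 36 in OE, and it was at -0.44 without EV replicate 2. CCL3L1, a near-identical copy of CCL3 whose reads may be shared with it, had 4 and 0 counts in EV and 21 and 44 in OE. FOSB was at 3.03 ± 0.52 and 3.70, CXCL11 at 1.48 ± 0.55 and 1.86, DPP4 at -1.72 ± 0.32 and -1.95 and CCR1 at -1.95 ± 0.53 and -2.37. The EV libraries held 15 and 8 counts of FOSB and 11 and 8 of CXCL11. FOSB, CXCL11 and CCL3L1 passed the filter only through OE, as CCL26 did without EV replicate 1, so they had to differ to be fitted.

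In the control lines, 61 genes of the list were tested, and 17 were called higher and 16 lower in U87 EV, against 56.9% called of all genes, with a median log2 fold change of 0.08 where that of all genes was -0.03. CSF3 was higher by 10.58 on the log2 scale and CEBPD by 3.33, FOSL1 by 3.16, DPP4 by 3.13 and IL6 by 3.11. Among those lower, CXCL14 and CXCR4 had 0 counts in both EV libraries, PIK3CG also, and CX3CL1 had 0 and 1, against 16 to 19, 7 to 18, 5 to 16 and 76 to 82 counts in NC. CCR3 was lower with a log2 fold change of -3.38 and ARRB1 with -3.25. CSF3 in NC, and CXCL14, CXCR4, PIK3CG, CX3CL1 and CCR3 in EV, were low and passed the filter only through other groups. Nothing is read from their calls. Of the 7 inducing cytokines tested between the controls, 4 were higher in U87 EV (CSF3, IL6, IL1B and LIF), and IL1A at 0.07, CSF2 at -0.01 and TNF at -1.52 did not pass.

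Other coding genes near the chromosome 4 cluster were read beside it, by a window of 500000 bases on each side chosen after values were seen. Of 12 such genes 10 had a row, of which 3 were tested in SNB19 and 4 in U87. EREG, an EGF receptor ligand, had 3764 to 6931 counts in EV and 24418 to 25912 in OE, a log2 fold change of 2.18 ± 0.39 (adjusted p = 0.156), and 1.90 without EV replicate 1. It had 0 to 2 counts in NC and 4 to 14 in siMEOX2 and was not tested there. MTHFD2L, which lies next to CXCL2, was at 0.63 ± 0.13 in SNB19 (adjusted p = 0.000242) and at 0.20 ± 0.32 in U87, and at 0.53 without EV replicate 1. AFP was at -0.40 ± 0.38 in SNB19 and -0.21 ± 0.83 in U87, and its direction turned without EV replicate 1, to 1.42. ANKRD17 was at 0.07 ± 0.07 in SNB19 and 0.85 ± 0.71 in U87, and at 0.16 ± 0.11 without EV replicate 1. AREG had 0 counts in all libraries but OE, which had 1 and 2.

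The genes whose pattern was most like that of CXCL8 were found by Pearson's r of log2 CPM over the 10 libraries, each line centred on its own mean, among 17303 genes. They were NMRAL2P (r = 0.997), PNRC1 (0.994), TMEM38B (0.993), FAM210A (0.993) and ATF3 (0.992), the last a stress-induced bZIP transcription factor. ATF3 had a log2 fold change of 1.41 ± 0.10 in SNB19 and 2.59 ± 0.28 in U87, and 2.48 without EV replicate 1. NMRAL2P was at 1.32 ± 0.12 and 2.28 ± 0.34, and at 2.29 without that library. The 10 points share their line and treatment, and these values are a description with no test.

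By the same measure CXCL2 came 80th, with r = 0.963. CXCL3 came 718th at 0.859, CCL20 746th at 0.855 and CXCL1 1715th at 0.748. CXCL16 was at 0.600 and CXCL5 at 0.390. CCL2 was at -0.725, on counts that in U87 never passed 4. The values for CXCL1, CXCL5 and CXCL16 rest in one of the lines on 8 counts or fewer. CXCL2 and CCL20 were put in the list because they rose with CXCL8 in both lines, so their correlations with it follow in part from that choice.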

How the data were processed

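RNA was sequenced from 10 libraries of SNB19 and U87. Per the labels, the authors aligned reads to GRCh38 with HISAT2 and counted them with HTSeq 0.11.2; the deposited table holds a count and an FPKM value per gene and library, and the annotation release and strand setting are not given in the sources used here. Every value column was mapped to a library (0 were not). Counts were tested with edgeR 4.0.16 in R 4.3.3 (quasi-likelihood, TMM, filterByExpr, Benjamini-Hochberg over all genes tested, adjusted p under 0.05), with one fit for each line and one over all libraries for the controls. DESeq2 1.42.0 and limma 3.58.1 on log2(FPKM + 0.1) were alternatives, as were library size only, no filter, a replicate block, gene length offset and leaving out each library. Library totals of 12533775 to 16560324 counts set the precision, and a floor of 3 counts was used for groups at 0. The fits were tested on simulated data with the same spread for every gene and no effect of gene length. That test therefore does not cover the difference between the EV libraries.

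The chemokines and gene lists were chosen with earlier results of these data known. Genes named are all listed chemokines, MEOX2, up to 12 called genes of the chemokine system list per comparison with the largest change, the receptors of the chemokines, and the 5 genes most like CXCL8. U87 called none, so its list genes were named from the fit without EV replicate 1, after values were seen. The neighbours of the chromosome 4 cluster, the marker genes, and the list genes outside these rules (among them IL1B, CCR1 and TNFAIP3 in SNB19) were also named after their values were seen. The replicate numbers did not pair the SNB19 libraries: deviations of same-numbered libraries from their group means correlated at 0.043, 0.003 and 0.059.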

Additional observations from a re-analysis of the deposited data

How the results depend on the processing

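The chemokines that passed the filter (6 in SNB19, 6 in U87 and 8 between the controls) kept their direction in the alternative fits: 78 values in SNB19, 72 in U87 and 88 between the controls. Of these, 202 also kept their side of the threshold, 35 crossed to being called, and 1 was lost (CXCL3 between the controls, with limma).

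In SNB19, 8683 genes were called, and 2725 with all libraries in one fit and 1669 by the study's thresholds (an unadjusted p and a log2 fold change over 1). For the chemokine system list, 43 became 21 and 12. In U87 the count of 0 became 991 with DESeq2, 1863 with no filter, 4538 with all libraries in one fit, 18 with the length offset and 2160 by the study's thresholds, and the list count of 0 became 9, 12, 21, 2 and 19. Leaving out one library gave 38 to 10616 genes and 2 to 44 of the list: 7052 and 34 without EV replicate 1, 10616 and 44 without EV replicate 2, 41 and 2 without OE replicate 1, and 38 and 2 without OE replicate 2. The cause was not tested beyond the lone library being assumed to vary like the pair kept.

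With the replicate number as a block, SNB19 gave 8601 calls and U87 468, 6 of them in the list. Same-numbered U87 libraries deviated apart (r = -0.162), and the crossed pairing, added after seeing the data, gave 1152 calls and 11 in the list. The block changed no call of a chemokine in SNB19. In U87, where 0 chemokines were called, the block called 4 of 6 (CXCL2, CXCL3, CXCL5 and CXCL8; 3.3% of all genes), and the crossed pairing 5 of 6, with CCL20 (8.12% of all genes). No filter called the same 5 (6.79% of all genes), and all libraries in one fit called these 5 and CCL2, which was lower (26.2% of all genes).

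Depth limits CXCL12 throughout, CXCL1 and CXCL5 in SNB19, and CCL20, CCL2 and CXCL16 in U87. With 2 libraries a group, and a control pair that differs by gene length, U87 values are known less well than those of SNB19.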
